A study of Mus musculus with 6 samples.

Results

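The genes described here are 10 members of the ETS family of transcription factors, Elf1, Elf2, Elf4, Elf3, Ehf, Elk3, Elk4, Etv3, Erf and Etv6. They are 10 of 21883 protein-coding genes in the RefSeq annotation of the mouse genome. Every open-chromatin peak in or within 20 kb of the span of one of these genes was counted as near it. Merging the peaks of all samples gave 137 regions near the 10 genes, out of 75961 regions in the whole data set, and no region was near more than 1 of them.

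The measurements were ATAC-seq peak lists, which mark where a transposase could enter the chromatin, from Lin- bone marrow progenitors of the strain C57BL/6. They were obtained with a Miltenyi lineage depletion kit, which leaves a mixture enriched for stem and progenitor cells, and were tagmented with Nextera reagents. Of the samples, 3 were wild type (UTX_WT, Utx +/+) and 3 were knockout (UTX_KO, Utx-/-) for the gene of the histone demethylase UTX, also called Kdm6a. Age, the way in which Utx was deleted, and whether each sample was a separate animal are not stated in the labels, so p-values measure the spread between these samples, which may be technical.

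ETS factors share a DNA-binding domain, the ETS domain, that reads the core sequence GGAA. ELF1, ELF2 and ELF4 are activators in blood cells, whereas ELF3 and EHF are known mainly from epithelia. ELK3 and ELK4 are ternary complex factors, which bind DNA together with serum response factor and respond to ERK signalling. ETV3, ERF and ETV6 are repressors, and ETV6 is needed by adult haematopoietic stem cells and is broken by chromosome translocations in leukaemia.

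RefSeq promoter windows, 250 bases before to 50 after an annotated start in GRCm38.p6 (the assembly of mm10), were found for 9 of the 10 genes, the exception being Ehf. They came to 14 windows, of which 13 overlapped a region with a peak in all 6 samples. The windows printed here are those of starts whose open region had peak widths that did not overlap between genotypes, at Elf2, Elk3 and Etv6, and that of Elf3, where no sample had a peak over the start. Each is written 5′ to 3′ on the gene's strand, and capitals mark GGAA or its reverse complement TTCC, which can overlap.
Elf2 upstream start, chr3:51340595-51340894, minus strand: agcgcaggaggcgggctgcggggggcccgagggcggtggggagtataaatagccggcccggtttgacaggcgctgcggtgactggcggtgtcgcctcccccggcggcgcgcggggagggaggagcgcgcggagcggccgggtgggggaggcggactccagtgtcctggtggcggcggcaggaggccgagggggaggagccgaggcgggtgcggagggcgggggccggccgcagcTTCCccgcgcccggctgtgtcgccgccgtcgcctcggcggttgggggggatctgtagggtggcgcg
Elf2 downstream start, chr3:51277465-51277764, minus strand: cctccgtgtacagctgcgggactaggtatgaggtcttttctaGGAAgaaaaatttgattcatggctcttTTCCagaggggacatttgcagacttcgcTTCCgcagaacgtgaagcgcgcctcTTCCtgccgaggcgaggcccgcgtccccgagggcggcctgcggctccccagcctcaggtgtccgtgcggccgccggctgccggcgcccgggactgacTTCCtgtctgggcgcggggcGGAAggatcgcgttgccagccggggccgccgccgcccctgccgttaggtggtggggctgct
Elk3 start, chr10:93311110-93311409, minus strand: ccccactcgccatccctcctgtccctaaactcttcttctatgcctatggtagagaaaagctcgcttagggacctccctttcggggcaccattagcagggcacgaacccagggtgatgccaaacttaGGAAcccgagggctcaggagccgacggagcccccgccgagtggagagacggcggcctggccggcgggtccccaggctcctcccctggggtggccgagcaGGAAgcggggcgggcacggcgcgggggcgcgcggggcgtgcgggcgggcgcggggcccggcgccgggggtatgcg
Etv6 start, chr6:134035450-134035749, plus strand: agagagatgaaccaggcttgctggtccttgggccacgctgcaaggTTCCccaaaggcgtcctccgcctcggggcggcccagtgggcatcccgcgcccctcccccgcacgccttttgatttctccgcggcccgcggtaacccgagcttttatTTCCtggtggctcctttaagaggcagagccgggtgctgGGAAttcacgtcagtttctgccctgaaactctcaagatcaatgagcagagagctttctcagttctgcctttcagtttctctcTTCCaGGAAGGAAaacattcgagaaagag
Elf3 start, chr1:135258423-135258722, minus strand: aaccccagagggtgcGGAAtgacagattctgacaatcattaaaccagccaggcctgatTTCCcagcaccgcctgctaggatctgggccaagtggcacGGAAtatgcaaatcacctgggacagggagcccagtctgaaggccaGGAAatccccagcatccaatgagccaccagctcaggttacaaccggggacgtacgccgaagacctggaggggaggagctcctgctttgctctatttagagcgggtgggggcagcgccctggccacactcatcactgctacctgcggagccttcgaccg

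The core GGAA, searched on both strands, was in all 14 windows of these genes, with 1 to 8 matches and a median of 3. It is a short and common word, present in 95.7% of 21262 promoter windows of protein-coding genes, also with a median of 3 matches. The longer word CCGGAA, which contains GGAA, was in 1 of the 14, at an Elk4 start, against 18.7% of all windows. The GATA factor words GATAA and AGATAA, of which the second contains the first, were in 0 of the 14, against 22.5% and 9.65% of all windows. These are matches of letters and not measured binding.

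Knockout lists were shorter throughout, at 44576 to 50249 peaks against 57405 to 57917 in wild type, so each count below is read against that. Sequencing depth is unknown, so its part in the length of a list cannot be told apart from that of the genotype. Of 10 stem and progenitor markers, 8, Kit, Cd34, Flt3 and Myb among them, had a peak within 1 kb of a start in every sample. The other 2 have no start entry, and 52.7% of 17491 genes with an entry had such a peak. The count was 4 of 8 for granulocyte and monocyte, 2 of 10 for erythroid, 2 of 10 for B lymphoid and 2 of 4 for dendritic cell markers. It was 1 of 6 for megakaryocyte, 0 of 8 for epithelial and 0 of 7 for stromal and endothelial markers. Some of these genes have no start entry either. Sums of peaks near marker genes differed with genotype for several cell types, and overlapped for T and NK cells. They are to be read beside the whole lists, where knockout samples had 81.0% of the wild-type number. Peaks near 10 erythroid markers summed to 49 to 55 in wild type and 15 to 17 in knockout samples, with Slc4a1 at 0 in every knockout sample. Those near 10 B lymphoid markers summed to 34 to 42 and 56 to 69, and those near the 10 stem and progenitor markers to 85 to 86 and 58 to 69. The sums were 31 to 33 and 15 to 19 for 6 megakaryocyte, 45 to 48 and 40 to 43 for 8 granulocyte and monocyte, and 31 to 36 and 24 to 26 for 4 dendritic cell markers. They were 22 to 26 and 22 to 24 for 8 T and NK cell markers, of which 0 had a start peak in all 6 samples, and 18 to 22 and 14 to 17 for 7 stromal and endothelial markers. The part of these differences in the results below was not tested, and in a mixed sample fewer cells of a type and less open chromatin per cell cannot be told apart. Kdm6a had 4, 5 and 5 peaks in wild-type samples 1, 2 and 3 and 6, 6 and 5 in knockout samples 1, 2 and 3, which does not check its deletion, because the deleted part is not stated.

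Near the 10 ETS genes together, knockout samples had fewer peaks, and about the same share of their shorter lists. Wild-type samples 1, 2 and 3 had 111, 122 and 111 peaks near them, and knockout samples 1, 2 and 3 had 85, 95 and 86. The groups did not overlap, at 115 ± 6.35 and 88.7 ± 5.51 peaks (SD, n = 3 each), so knockout samples had 77.3% of the wild-type number, where the whole lists had 81.0%. As a share of each list the values were 0.193%, 0.211% and 0.193% in wild type and 0.188%, 0.189% and 0.193% in knockout, and these groups overlapped. With each list limited to its widest 44576 peaks, the means were 90.3 and 83.7 peaks, a difference of -6.67 in place of -26. Peaks within 1 kb of an annotated end or start numbered 16, 16 and 17 in wild type and 12, 13 and 14 in knockout, and those farther away 95, 106 and 94 against 73, 82 and 72. Bases covered by peaks did not overlap between the groups either, at 76.1, 74.8 and 76.2 kb in wild type and 59.2, 64.3 and 58.4 kb in knockout.

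The lowest ratios of knockout to wild type among the 10 were those of the epithelial factor genes. Elf3 and Ehf together had 9, 8 and 7 peaks in wild-type samples 1, 2 and 3 and 2 in each knockout sample, which is 25% of the wild-type mean. The other 8 genes had 102, 114 and 104 peaks in wild type and 83, 93 and 84 in knockout, or 81.2% of the wild-type mean. Their share of the lists was 0.185% ± 0.0103 in wild-type samples and 0.186% ± 0.00257 in knockout samples (SD, n = 3), with overlapping groups.

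All 10 genes had a lower mean number of peaks in knockout samples in the full lists, but with each list limited to 44576 peaks Elf2, Elf4 and Etv6 had slightly higher means and Erf an equal one. For 4 of them, Elf1, Elf3, Ehf and Erf, every knockout sample was below every wild-type sample. Among all 16981 genes with a peak, 27.6% had fewer peaks in every knockout sample and 4.25% had more, so the 4 and 0 of 10 are to be read against a large background. For these 4 genes the two-sided exact permutation p was 0.1, the smallest that 3 samples against 3 allow, and the Benjamini-Hochberg adjusted p over all genes was 0.314. For the other 6 genes the exact permutation p lay between 0.2 (Elk3 and Etv6) and 0.9 (Elf2). No gene of the 16981 could pass an adjusted p of 0.05, and 0 had an unadjusted p under 0.05. With the equal-length lists, 2 of the 4 still had fewer peaks in every knockout sample, and these were Elf3 (2 to 3 against 1) and Ehf (3 to 4 against 1). With the widest 50% of each list the count was 2, these being Elf1 and Elk4. The count was 7 without knockout sample 2, which had the longest knockout list, and 6 without wild-type sample 3. Groups of fewer samples separate more easily by construction. The 27.6% holds for the full lists of all 6 samples, and the share of all genes in the other settings is not given here.

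**Figure D1:**
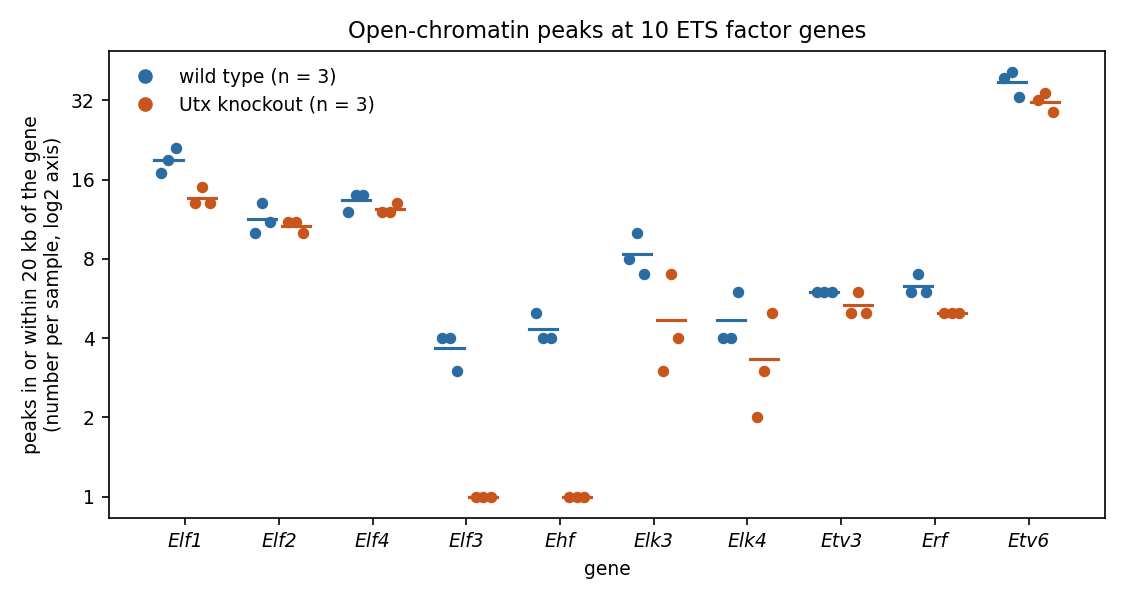
Number of peaks in or within 20 kb of each gene (log2 axis), 1 point per sample, 3 wild-type samples in blue and 3 knockout samples in orange, with bars at the means. Elf3 and Ehf had 3 to 5 peaks in wild-type samples and 1 in every knockout sample, while the groups of Elf2 and Elf4 overlapped.

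Relative to the length of the window, the wild-type density of peaks was highest at Elf4, with 14.5 ± 1.25 peaks per 100 kb (SD, n = 3). Etv6 followed with 13.7 ± 1.52, Elf1 with 13.4 ± 1.42 and Erf with 13.0 ± 1.19 peaks per 100 kb. These 4 neighbours in the order did not differ beyond their spread. Etv3 had 11.0 peaks per 100 kb in every wild-type sample. Elf2, Elf3, Elk3 and Elk4 lay close together at 8.86 ± 1.19, 8.17 ± 1.29, 8.03 ± 1.47 and 7.93 ± 1.96 peaks per 100 kb, and Ehf was lowest at 5.43 ± 0.723. The median over all genes with a peak was 5.46 in wild type and 4.35 in knockout. In knockout samples Elf4 was again highest, with 13.4 ± 0.627, whereas Elf3 had 2.23 and Ehf 1.25 peaks per 100 kb in each of the 3.

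Regions with a peak in every sample made up a large part of these loci, with 67 of 137 (48.9%) against 42.9% of the 62091 regions near any protein-coding gene. A region was called lost when it had a peak in all 3 wild-type samples and in no knockout sample, and gained in the reverse case. Near the 10 genes 8 regions were lost (5.84%), where 10.7% of regions near genes were, and 1 was gained (0.730%), where 4.05% were. Of the 88 regions near these genes with a peak in all 3 wild-type samples, 9.09% were lost, against 17.0% of 39048 near all genes. The lost regions lay at 5 genes, 2 each at Elf3, Ehf and Etv6 and 1 each at Elk4 and Erf, and the gained region at Etv6. Wild-type peaks in lost regions were narrow, with means of 243 to 509 bp and a median of 396.5 bp, close to the median of 365 bp over lost regions near all genes. With equal-length lists 7 of 106 regions were lost (6.60%), against 7.25% of all regions. The lost count was 13 without wild-type sample 1, 13 without wild-type sample 3 and 13 without knockout sample 2. The share of lost regions was then 9.77%, 9.92% and 9.49%, against 14.0%, 13.6% and 13.4% of all regions. The gained count was 3 of 137 without knockout sample 1, where 6.71% of all regions were gained.

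A further 61 regions had other patterns, of which 51 had a peak in more wild-type than knockout samples and 6 the reverse. Among all 137 regions, 43.1% had a peak in more wild-type samples and 5.11% in more knockout samples, against 39.8% and 14.4% of regions near all genes. A peak in 1 wild-type sample alone was found at 24 regions (17.5%, against 11.0% near all genes), and a peak in 1 knockout sample alone at 2 (1.46%, against 4.20%).

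Starts of these genes were mostly open in both genotypes. Of the 9 genes with a start entry, 8 had a peak within 1 kb of a start in all 6 samples, against 52.7% of 17491 genes. Elf3 was the exception, with a peak there in all 3 wild-type samples and in no knockout sample, a pattern that 0.8% of genes had. A window of 500 bp or 2.5 kb on either side of the start also gave 8 of 9. The Elf3 pattern depends on the window, because its wild-type peaks ended 578 bp or more upstream of the start. With 500 bp, no sample of either genotype had a start peak at Elf3.

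Elf1, an activator of lymphoid and other blood cell genes, had 17, 19 and 21 peaks in wild-type samples 1, 2 and 3 and 13, 15 and 13 in knockout samples. The gene lies on chromosome 14 at 79481174 to 79582491 in mm10. None of its 22 regions was lost or gained, and 12 had a peak in all 6 samples. Over its upstream and downstream starts the groups overlapped, with 1789 ± 255 and 1804 ± 242 bp covered at the upstream start and 2186 ± 270 and 2306 ± 40.6 bp at the downstream start (SD, n = 3). By contrast, a stretch inside the gene between 16488 and 33574 bp past the downstream start held 4 regions that were narrower in every knockout sample. The region at 79535315 to 79536391 had 1041, 649 and 972 bp covered in wild type and 440, 529 and 471 bp in knockout, a ratio of means of 0.541. The region at 79537313 to 79537871 had 453, 498 and 525 bp and 338, 237 and 291 bp. Smaller differences flanked them, with 461, 474 and 561 bp against 310, 273 and 429 bp at 79532162 to 79532732, and 555, 468 and 425 bp against 326, 411 and 343 bp at 79549248 to 79549804. With the widest 50% of each list 4 regions at Elf1 were lost, and 3 of these 4 narrower regions were among them. That limit removes narrow peaks, so a region narrower in knockout can become lost by construction, which adds nothing to the widths. A region 5436 bp past the upstream start, named after its values were seen, had 1043, 807 and 882 bp in wild type, and in knockout a peak of 332 bp in sample 2 alone.

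Elf2, which encodes a close relative of ELF1, had 10, 13 and 11 peaks in wild type and 11, 11 and 10 in knockout, so the groups overlapped. Widths at its 2 starts differed in opposite directions. The region over the upstream start on chromosome 3 (51339516 to 51342510) had 2694, 2881 and 2747 bp covered in wild type and 2525, 2544 and 2491 bp in knockout. Over the downstream start (51275879 to 51277999) coverage was 2014, 1960 and 1906 bp in wild type and 2042, 2081 and 2051 bp in knockout. Neither pair of groups overlapped, and the differences were small, with ratios of 0.908 and 1.05. The promoter windows at both are printed above. The strongest narrowing in the whole set was at 51233837 to 51234828, which had 901, 913 and 937 bp in wild type and 369, 386 and 410 bp in knockout, a ratio of 0.423. It overlaps the neighbouring gene Noct and lies 17892 bp outside Elf2. Noct also holds a region at 51238544 to 51238970 with 403, 320 and 414 bp against 243, 249 and 256 bp. Upstream of Elf2, 12697 and 17291 bp from the gene, regions had 408, 550 and 388 bp against 379, 337 and 383 bp, and 1551, 1539 and 1691 bp against 1331, 1342 and 1319 bp. The latter region was split by a gap in every knockout sample and unbroken in every wild-type sample. Relative to the upstream end of Elf2, knockout sample 1 had peaks at -18.916 to -18.055 kb and -17.81 to -17.342 kb. Wild-type sample 1 had a peak at -18.969 to -17.419 kb. The lower coverage there thus reflects the gap, with outer ends close to those in wild type, and the split adds to the knockout peak counts of Elf2. None of the 13 regions of Elf2 was lost or gained.

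Elf4, on chromosome X, encodes a factor that acts in stem cell cycling and in natural killer cells. It had 12, 14 and 14 peaks in wild type and 12, 12 and 13 in knockout, so the groups overlapped. Of its 14 regions, 10 had a peak in every sample, and 2 of these were narrower in every knockout sample. The larger difference was at 48409541 to 48410728, 321 bp outside the gene, with 746, 806 and 1188 bp in wild type and 728, 612 and 653 bp in knockout. The other, inside the gene at 48424476 to 48425765, had 1224, 1259 and 1204 bp against 1101, 1154 and 1137 bp. Over its starts the groups overlapped, with 1714 ± 183 and 1923 ± 263 bp at the downstream one and 635 ± 11.2 and 573 ± 57.0 bp at the upstream one (SD, n = 3). No region at Elf4 was lost, gained or wider in every knockout sample.

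Elf3, encoding an epithelial ETS factor, had 4, 4 and 3 peaks in wild type and 1 in each knockout sample. It lies on chromosome 1 at 135253574 to 135258472. The lost region at 135259050 to 135259441, 578 bp upstream of the start, had peaks of 353, 340 and 383 bp in wild type. The other lost region, at 135250777 to 135251055 beyond the 3′ end, had peaks of 229, 278 and 246 bp. The single region with a peak in all 6 samples lies over the neighbouring gene Rnpep and was narrower in knockout, with 741, 742 and 683 bp against 422, 535 and 526 bp. No sample had a peak inside Elf3 itself, and the printed promoter window held none either. With equal-length lists the region 578 bp upstream was again lost and the one beyond the 3′ end was not. With the widest 50% of each list, Elf3 had 1 peak in wild-type samples, 0 to 1 in knockout samples and 0 lost regions.

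Ehf, the other epithelial factor, on chromosome 2 at 103263431 to 103303275, had 5, 4 and 4 peaks in wild type and 1 in each knockout sample. No other protein-coding gene lies within 20 kb. The lost region inside the gene (103298778 to 103299248) had peaks of 466, 396 and 447 bp in wild type, and the lost region 18366 bp outside it (103321641 to 103322232) had 591, 397 and 538 bp. One region inside the gene was kept in all 6 samples, with 426, 385 and 300 bp in wild type and 244, 320 and 291 bp in knockout, and these groups overlapped. Both lost regions were lost also with equal-length lists. With the widest 50% of each list, Ehf had 0 to 3 peaks in wild-type samples, 0 in knockout samples and 0 lost regions. Epithelial marker genes were looked at beside this pair. Peaks near 8 of them, Epcam, Krt8, Krt18, Cdh1, Cldn4, Krt5, Grhl2 and Esrp1, summed to 21 to 25 in wild type and 16 to 22 in knockout, with Krt5 at 0 in every sample. Of the 8, 2 had fewer peaks in every knockout sample, Krt8 and Krt18, against 27.6% of all genes with a peak. Counts per gene can share peaks where windows overlap, so these 2 calls need not be separate. Krt8, a keratin of simple epithelia, had a start peak in all 3 wild-type and 0 knockout samples, while Epcam had one in 0 wild-type and 3 knockout samples. Their part in the Elf3 and Ehf result was not tested.

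**Figure D2:**
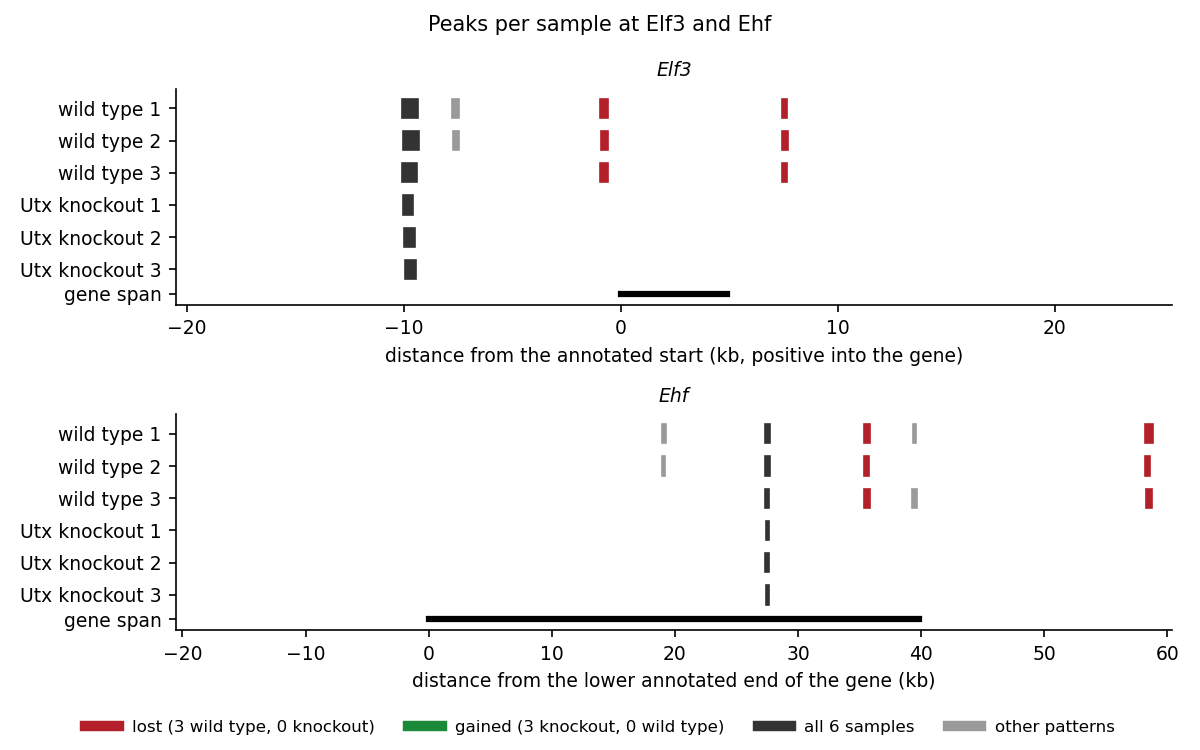
Peaks of each sample (rows) along Elf3 and Ehf by distance in kb, with lost regions in red, regions with a peak in all 6 samples in black, other patterns in grey, a thin outline that makes narrow peaks visible, and the gene span as a bar. At each gene 1 region keeps its peak in every sample, and 2 lost regions have peaks in the 3 wild-type samples alone.

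Elk3 and Elk4, the ternary complex factor genes among the 10, each had 1 region at or near a start that was wider in every knockout sample. That was 1 of 3 regions open in every sample at Elk3 and 1 of 2 at Elk4, where 11.9% were wider near all genes. Widths at Elk1, counted below with the rest of the family, are not given here. The numbers of peaks at Elk3 and at Elk4 overlapped between the groups. Elk3, encoding a repressor that ERK signalling turns into an activator, had 8, 10 and 7 peaks in wild type and 3, 7 and 4 in knockout, so the groups met at 7. Of its 13 regions, 3 had a peak in all 6 samples and 10 had mixed patterns. Over its start on chromosome 10 (93310164 to 93311436), peaks covered 426, 569 and 989 bp in wild type and 1273, 1142 and 1226 bp in knockout. That is 661 ± 293 bp and 1214 ± 66.4 bp (SD, n = 3), a ratio of 1.84, the highest of the 67 regions in all samples. The wild-type values were widely spread and still all below the knockout values. A region inside the gene 15950 bp past the start, named after its values were seen, had 403, 438 and 419 bp in wild type and a peak of 231 bp in knockout sample 2 alone.

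Elk4, the gene of a closely related partner of serum response factor, had 4, 4 and 6 peaks in wild type and 2, 3 and 5 in knockout. Its start region on chromosome 1 had 1348, 1374 and 1394 bp in wild type and 1362, 1310 and 1367 bp in knockout, which overlapped. A region 2124 bp past the nearest start (132010469 to 132011581) was wider in knockout, with 688, 559 and 739 bp against 904, 972 and 976 bp, a ratio of 1.44. The 1 lost region (132026887 to 132027363) had 421, 405 and 477 bp in wild type. It overlaps the neighbouring gene Mfsd4a, 439 bp outside Elk4, and was lost also with equal-length lists.

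**Figure D3:**
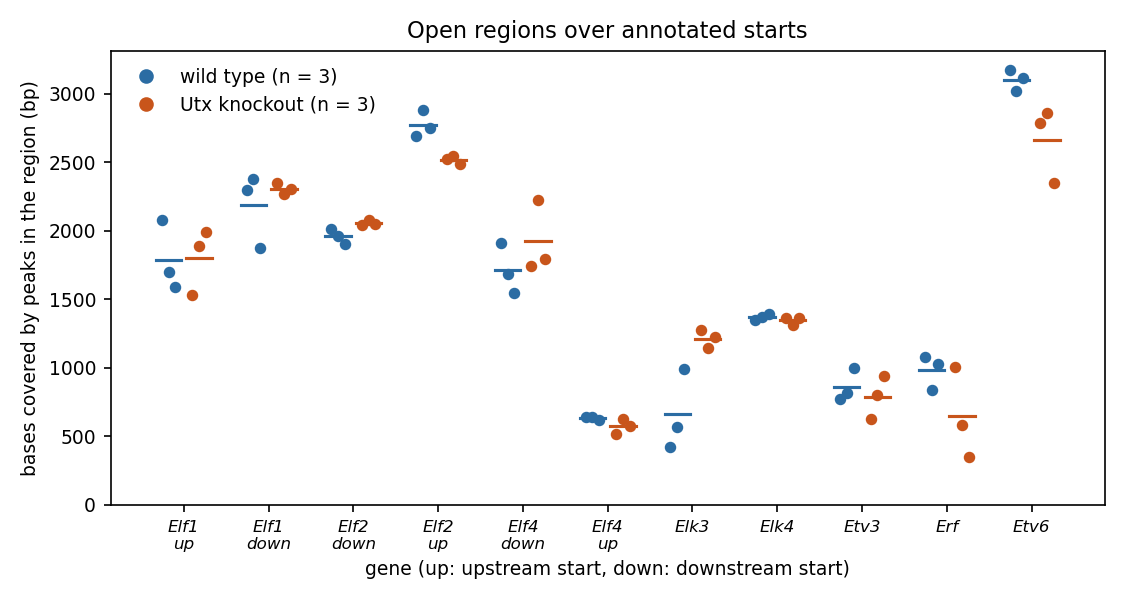
Bases covered by peaks in the region over each annotated start, 1 point per sample, 3 wild-type samples in blue and 3 knockout samples in orange, with bars at the means. Elk3 had 426 to 989 bp in wild type and 1142 to 1273 bp in knockout, Etv6 and the upstream start of Elf2 were narrower in knockout, and the other groups overlapped except at the downstream start of Elf2.

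The repressor genes Etv3 and Erf had few peaks, and no region of either had widths that separated the genotypes. Etv3, whose product restrains growth in differentiating macrophages, had 6 peaks in each wild-type sample and 5, 6 and 5 in knockout. Of its 6 regions, 5 had a peak in all 6 samples, the one over the start among them, with 772, 818 and 997 bp in wild type and 625, 800 and 944 bp in knockout. Erf, whose product leaves the nucleus when ERK phosphorylates it, had 6, 7 and 6 peaks in wild type and 5 in each knockout sample. Its start region had 1081, 840 and 1031 bp in wild type and 1006, 584 and 348 bp in knockout, a wide spread in knockout that overlapped with wild type. The lost region (25222335 to 25222627 on chromosome 7), with peaks of 238, 278 and 212 bp, lies over Zfp526 and 19933 bp outside Erf, just inside the 20 kb limit. Just outside the limit, at 20670 bp from Erf, lay a region with 3335, 3091 and 3062 bp in wild type and 2075, 2141 and 2125 bp in knockout.

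Etv6, the longest of the genes at 234 kb on chromosome 6 (134035700 to 134270158), had the most peaks, with 39, 41 and 33 in wild type and 32, 34 and 29 in knockout. The groups overlapped, since wild-type sample 3 was below knockout sample 2. Its 46 regions comprised 21 open in every sample, 2 lost and 1 gained. The start region (134034434 to 134037656), the widest of the set, had 3173, 3024 and 3115 bp covered in wild type and 2784, 2860 and 2351 bp in knockout, a ratio of 0.859. The strongest narrowing that separated the genotypes was at 134133645 to 134135406, with 1410, 1341 and 1719 bp against 978, 968 and 949 bp. Nearer the start, the regions at 134040327 and 134044468 had 2042, 1513 and 1705 bp against 1043, 1274 and 1367 bp, and 825, 850 and 1179 bp against 715, 776 and 697 bp. In all, 8 of the 21 were narrower and 2 were wider in every knockout sample. The narrower ones deeper in the gene, at 134130635, 134189615, 134201956 and 134243558, had ratios of 0.838, 0.820, 0.751 and 0.847. Of the wider ones, the first, 14320 bp upstream over the neighbouring gene Gm46977, had 561, 566 and 495 bp against 577, 696 and 691 bp, and the other, 184275 bp past the start, had 727, 712 and 750 bp against 836, 855 and 838 bp. The lost regions lay inside the gene, 19631 and 69808 bp past the start, with 498, 256 and 288 bp and 553, 389 and 378 bp in wild type. The gained region lay 18307 bp beyond the gene (134288465 to 134289132), with peaks of 494, 668 and 560 bp in knockout, and Etv6 had 1 gained region also with equal-length lists and with the widest 50% of each list.

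**Figure D4:**
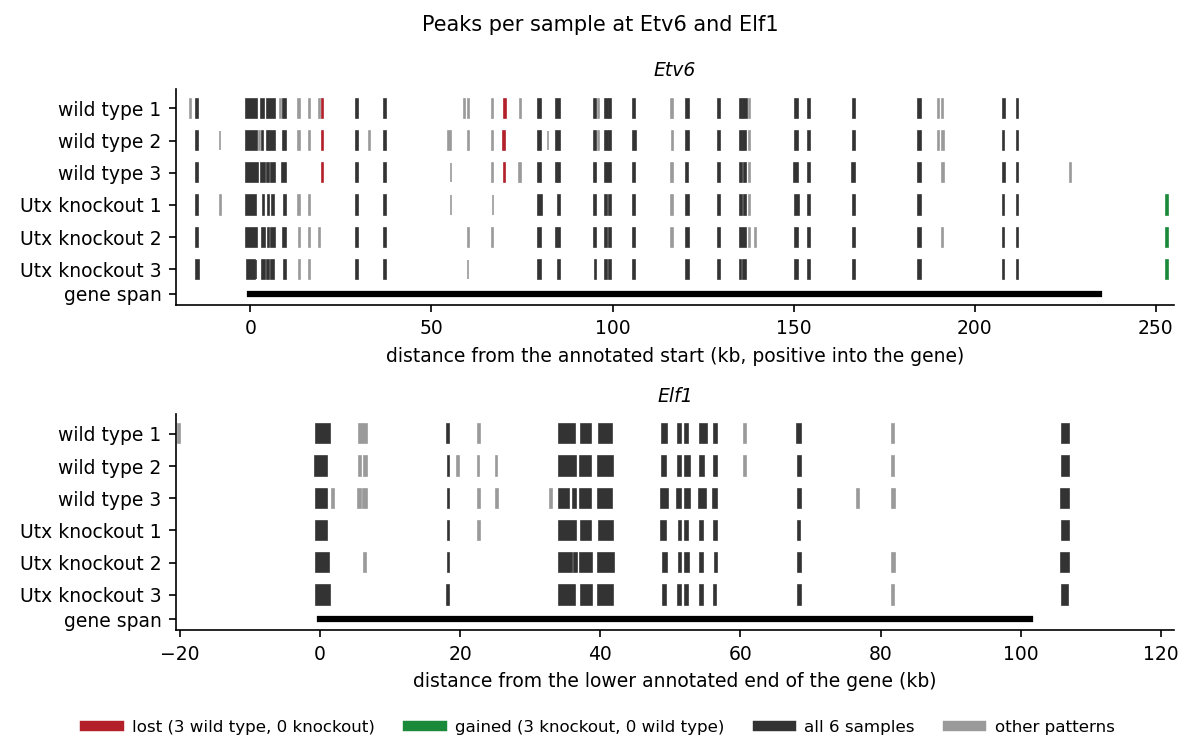
Peaks of each sample (rows) along Etv6 and Elf1 by distance in kb, with lost regions in red, the gained region in green, regions with a peak in all 6 samples in black, other patterns in grey, a thin outline that makes narrow peaks visible, and the gene span as a bar. Etv6 has 2 lost regions inside the gene and 1 gained region beyond it, and Elf1 has neither.

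Among the 67 regions with a peak in all 6 samples, bases covered were lower in every knockout sample at 20 (29.9%) and higher in every knockout sample at 5 (7.46%). Among the 26639 such regions near all genes the shares were 27.7% and 11.9%. The median ratio of knockout to wild-type coverage was 0.874 near the 10 genes and 0.930 near all genes. The 20 narrower regions lay at Elf1 (4), Elf2 (5), Elf4 (2), Elf3 (1) and Etv6 (8), and the 5 wider ones at Elf2, Elk3, Elk4 and Etv6, which had 2. Narrower means fewer bases covered, also where a gap splits the peak, as in the region 17291 bp outside Elf2. The part of depth in these widths was not tested. With the widest 50% of peaks, which leaves 41 regions in all samples, 10 were narrower, and the share over all regions in that setting is not given here.

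**Figure D5:**
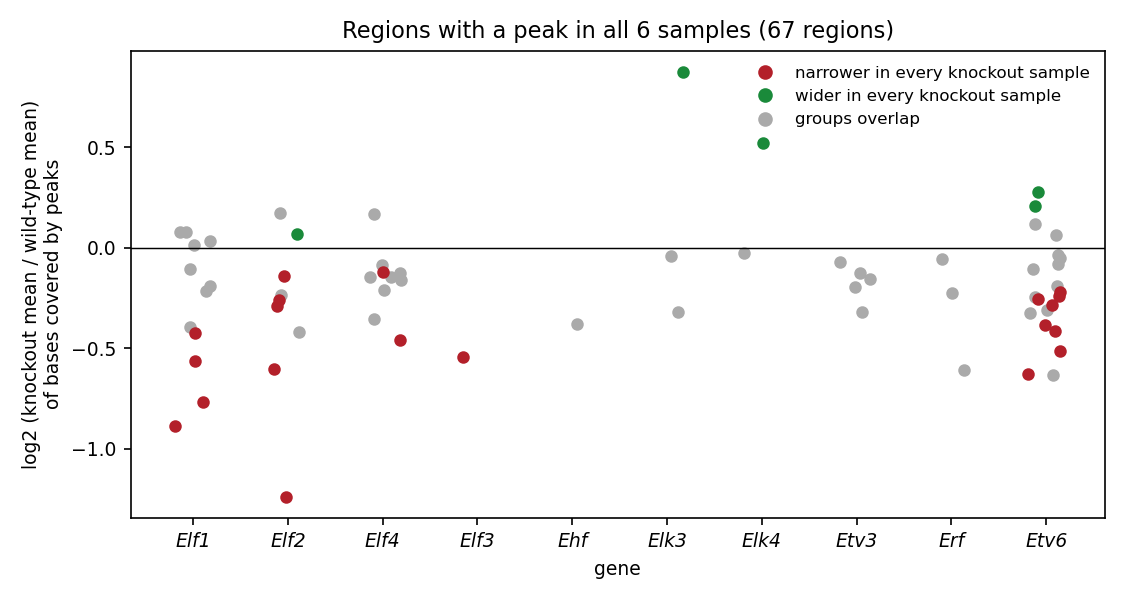
Log2 ratio of knockout to wild-type mean bases covered for each of the 67 regions with a peak in all 6 samples, by gene (spread sideways to separate points), with regions narrower in every knockout sample in red, wider in every knockout sample in green and overlapping groups in grey. Most points lie below 0, and the highest points belong to Elk3 and Elk4.

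The rest of the ETS family had overlapping numbers of peaks in the 2 genotypes, and so a larger share of the shorter knockout lists. Near 16 such genes, Ets1, Ets2, Fli1, Erg, Fev, Gabpa, Spi1, Spib, Spic, Elf5, Elk1, Etv1, Etv2, Etv4, Etv5 and Spdef, wild-type samples had 105, 113 and 109 peaks and knockout samples 104, 114 and 108. Fev had none in any sample. As a share of each list these were 0.183%, 0.195% and 0.189% in wild type and 0.230%, 0.227% and 0.242% in knockout. These shares did not overlap, and the knockout mean was 123% of the wild-type mean, where for the 10 genes it was 95.5% with overlapping groups. For every peak near those genes, the 10 genes had 1.06, 1.08 and 1.02 peaks in wild type and 0.817, 0.833 and 0.796 in knockout, a ratio of means of 0.776 with groups that did not overlap. No test was run on this ratio, because the genes were grouped with earlier results known. Of the 16, 5 had fewer and 3 had more peaks in every knockout sample, against 27.6% and 4.25% of all genes with a peak. The largest differences were at Spib, known from B lymphocytes and dendritic cells, with means of 4.33 ± 0.577 and 9.33 ± 0.577, and at Ets1, with 14 ± 1 and 18 ± 1 (SD, n = 3 each). Fli1 followed with 21 ± 2 and 17.7 ± 0.577, and Etv2 with 4.33 ± 0.577 and 2 in each knockout sample. Of regions near the 16 genes, 3 of 143 were lost (2.10%) and 6 gained (4.20%), against 10.7% and 4.05% of regions near all genes.

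Near 21 genes of partners and regulators of these factors, peaks numbered 151, 151 and 154 in wild type and 122, 143 and 130 in knockout. Their share of the lists differed in the other direction, with 0.263%, 0.261% and 0.267% in wild type and 0.270%, 0.285% and 0.292% in knockout, and neither the counts nor the shares overlapped. Fewer peaks in every knockout sample were seen at 6 of the 21 and more at 1, against 27.6% and 4.25% of all genes with a peak. The largest differences were at Runx1, which encodes a stem cell factor that is fused to ETV6 in leukaemia, with 27.3 ± 1.15 and 21.7 ± 2.52 peaks, and at Crebbp, encoding a histone acetyltransferase, with 8.33 ± 2.31 and 3 ± 1. Cbfb, encoding the partner of RUNX proteins, had 3 ± 1 and 5.33 ± 0.577. Map2k1, an ERK pathway kinase gene, with 5.33 ± 0.577 and 3.33 ± 0.577, and Hdac3, a histone deacetylase gene, with 9.33 ± 0.577 and 7.33 ± 1.15, were tied for the fourth place. Srf itself had 4 peaks in each wild-type sample and 4, 4 and 3 in knockout.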

How the data were processed

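Peak positions are the deposited data: per sample a list of chromosome, start and end with no score, made by the authors with MACS2 on build mm10, per the submitters' processing notes. For versions, aligner, read filters and shifts: not given in the sources used here. Peaks of the 6 samples sharing at least 1 bp were merged into regions. Gene spans came from RefSeq GRCm38.p6 (21883 protein-coding genes, no exons), and starts and strand from its promoter windows. Bases covered are the summed widths of a sample's peaks in a region. Peaks per gene were compared by two-sided exact permutation over samples with Benjamini-Hochberg adjustment over 16981 genes. Sums over the 10 genes got no test. The genes and lists were chosen with earlier results of these data known. Every gene of the set is named, with its lost and gained regions, its start regions and the regions whose widths separate the genotypes. From the other lists the 4 genes with the largest differences are named, ties included, and Srf was added later. The calling and the permutation test were checked on simulated lists. Python 3.11.15, numpy 2.4.6 and pandas 2.3.3 were used.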

Additional observations from a re-analysis of the deposited data

How the results depend on the processing

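The difference of -26 peaks between knockout and wild type near the 10 genes was -6.67 when every list was limited to its widest 44576 peaks (equal lengths), -15 with the widest 50% of peaks and -37.3 within 50 kb. More than 1 kb from annotated ends it was -22.7, and -3.33, -13 and -34 in the same order. For covered bases it was -15.1 kb, and -10.7 with equal lengths, -10.8 in the gene span alone and -21.9 within 50 kb. Lost regions numbered 3 in the gene span alone (2.91%, against 10.6% of all regions), 18 within 50 kb (9.28%, against 10.6%), 19 when 2 of 3 samples sufficed (13.9%, against 17.5%) and 8 to 13 when 1 sample was left out. Gained regions numbered 0 of 103 in the gene span and 4 of 194 within 50 kb, both against 4.69% of all regions. They numbered 2 of 147 with 500 bp windows around peak centres (4.69% of all), 3 of 137 when 2 of 3 sufficed (7.44% of all) and 1 to 3 with 1 sample left out. Genes of the 10 with fewer peaks in every knockout sample numbered 2 with equal lengths, with the widest 50% and in the gene span, and 4 to 7 with 1 sample left out. The share of all genes in these settings is not given here. Regions in all 6 samples numbered 41 with the widest 50%, of which 10 were narrower, and 91 within 50 kb, of which 8 were wider. For these widths the shares over all regions in the same settings are not given here. The ratio to other ETS genes was 0.740 with equal lengths, 0.733 with the widest 50% and 0.837 within 50 kb. The cause of these moves was not tested, beyond what fewer peaks or a wider window bring by construction. Elf2, Elf4 and Etv6, whose mean differences were -0.667, -1 and -6 peaks, had 0.667, 0.667 and 0.333 with equal lengths. None of these 3 had non-overlapping groups within 20 kb in the full lists of all 6 samples. Within 50 kb Elf2 had 19 to 24 peaks in wild type and 15 to 16 in knockout, a mean difference of -6.33. With the replicate block the difference was again -26, and the exact sign-flip p cannot go below 0.25 with 3 pairs. Over genes, deviations of same-numbered samples had correlations of -0.0662, 0.0116 and 0.0201, which cannot settle whether the numbers pair the samples. Near the 10 genes the same-numbered differences had an SD of 1 peak, against 6.35 within wild type and 5.51 within knockout. Depth is unknown and sets what a list can miss.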

Other observations

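Beyond the 20 kb limit, Elk3 had gained regions that the counts above leave out. Between 20 and 50 kb from the gene lay 3, at 93198112 to 93198846, 93353469 to 93354316 and 93356104 to 93356407 on chromosome 10. They had 709, 388 and 735 bp, 687, 808 and 829 bp, and 291, 211 and 275 bp covered in knockout samples 1, 2 and 3, and no wild-type peak. The last 2 lie 42310 and 44945 bp from Elk3, which is the nearest protein-coding gene, and the other overlaps Cdk17. No other gene of the 10 had a gained region in that range, and within 50 kb the 10 genes had 4 gained of 194 regions, against 4.69% of all regions.

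Ehf had 2 further lost regions between 20 and 50 kb, at 103324327 to 103324688 and 103337375 to 103337784 on chromosome 2, with 223, 283 and 362 bp and 311, 308 and 410 bp covered in wild type. Within 50 kb Ehf then had 6 to 8 peaks in wild-type samples and 1 in every knockout sample. Elf2 had 4 lost regions in that range, 2 of them over Noct, the neighbour that also holds the region with the lowest width ratio. Within 50 kb 18 of the 194 regions were lost (9.28%), against 10.6% of all regions. These regions were picked after their values were seen.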
